A study of Mus musculus with 36 samples.

Results

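The 10 genes described here are Prlr, F5, Sostdc1, Oca2, Abca4, Tmem72, Wdr72, Cldn2, Col8a1 and Col8a2, 10 of the 55450 genes in the annotation used at 1 month, all of which passed the filter on low counts at each age. They encode a receptor, secreted proteins, membrane proteins, a junction protein and matrix proteins of the choroid plexus. They were picked by name, and F5, Prlr, Oca2, Abca4 and Wdr72 were picked because they rose in Tpp1-/- mice at 2 months. Sostdc1, Cldn2, Tmem72 and Col8a1 are also named by the study from these libraries, so the values at 2 months are given below as a description with no test.

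RNA was sequenced from the forebrain/midbrain (F/M) and the cerebellum (Cb) of Tpp1-/- mice and of control siblings at 1, 2 and 3 months, with 3 libraries for each of the 12 groups and 36 in all. Tpp1 encodes the lysosomal peptidase tripeptidyl peptidase 1, whose loss causes late infantile neuronal ceroid lipofuscinosis (cLINCL). The Tpp1-/- mice carry a Tpp1 gene disrupted by gene targeting in all cells and come from heterozygous crosses. Controls were wild type, except control replicate 3 at 1 month, which was Tpp1+/- in both regions. No group received a treatment. Whether F/M and Cb libraries with the same number came from the same mouse is not given in the labels, and the p-values measure the spread between these libraries.

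The choroid plexus is a sheet of secretory epithelium that hangs into the brain ventricles around a core of fenestrated vessels and stroma. Its epithelial cells make cerebrospinal fluid, are joined by tight junctions that form the barrier between blood and fluid, and secrete carrier proteins and signalling factors into it. Some ventricles lie in the forebrain and another lies beneath the cerebellum, so each dissection carries a small amount of this tissue. In RNA from bulk tissue, more choroid plexus cells and more RNA per cell cannot be told apart.

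Library totals ran from 10609896 to 29942380 counts with a median of 21049839. Tpp1 lay at 42.1 to 111 CPM (counts scaled to library size with TMM factors) in controls and at 16.1 to 27.8 in Tpp1-/- libraries, and the groups did not overlap at any age. The sex labels did not hold: the libraries of 1 month all carried transcripts of 4 Y-linked genes (4584 to 9273 summed counts) and at most 8 Xist counts, whereas those of 3 months held at least 12199 Xist counts and at most 1 count of the Y-linked genes. This contradicted the label of 12 libraries. The 2-month libraries all carried Y-linked transcripts too. When levels are compared across ages, age and the set in which libraries were processed cannot be told apart, nor can sex where 3 months is one of the ages, while the fold changes between genotypes were each taken within an age. As a check on the tissue, the 22 choroid plexus epithelium genes fixed as markers were all above 3 counts in at least 1 library of every group.

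On the mouse mm10 assembly with GENCODE gene models, Prlr (ENSMUSG00000005268) lies at chr15:10177238-10349180 on the plus strand, F5 (ENSMUSG00000026579) at chr1:164151838-164220277 (plus) and Sostdc1 (ENSMUSG00000036169) at chr12:36314139-36318452 (plus). Oca2 (ENSMUSG00000030450) lies at chr7:56239760-56536518 (plus), Abca4 (ENSMUSG00000028125) at chr3:122044443-122180123 (plus), Tmem72 (ENSMUSG00000048108) at chr6:116679063-116716913 (minus) and Wdr72 (ENSMUSG00000044976) at chr9:74110356-74283308 (plus). Cldn2 (ENSMUSG00000047230) lies at chrX:139800828-139811386 (plus), Col8a1 (ENSMUSG00000068196) at chr16:57624258-57754737 (minus) and Col8a2 (ENSMUSG00000056174) at chr4:126286793-126314330 (plus). Each value counts reads over the exons of the whole gene. Prlr shares 203 exon bases on its own strand with the protein-coding Gm21973, which had 0 counts in every library, so reads from those bases may not be in the counts of Prlr.

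Upstream sequence was taken from RefSeq (GRCm38.p6), which had an entry for 8 of the 10 genes (Wdr72 and Sostdc1 had none). The 250 bases before the start site are shown for Cldn2 and Abca4, the pair of genes with a TATA box, and for Col8a1 and Col8a2, the paired chains of type VIII collagen, since both genes of each pair can be compared side by side. Capitals mark TATAAA (the TATA box), GGGCGG (the GC box) and TAATCC (the core bound by bicoid-type homeodomain proteins such as OTX2) on either strand, written as they read on the gene's strand. The windows are chrX:139800558-139800807 (plus strand, Cldn2), chr3:122044210-122044459 (plus, Abca4), chr16:57754738-57754987 (minus, Col8a1) and chr4:126286544-126286793 (plus, Col8a2).
Cldn2: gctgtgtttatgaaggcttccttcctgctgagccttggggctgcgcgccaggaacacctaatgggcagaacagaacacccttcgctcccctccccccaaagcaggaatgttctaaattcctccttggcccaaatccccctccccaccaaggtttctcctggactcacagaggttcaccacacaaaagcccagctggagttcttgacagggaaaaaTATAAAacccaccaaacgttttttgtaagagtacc
Abca4: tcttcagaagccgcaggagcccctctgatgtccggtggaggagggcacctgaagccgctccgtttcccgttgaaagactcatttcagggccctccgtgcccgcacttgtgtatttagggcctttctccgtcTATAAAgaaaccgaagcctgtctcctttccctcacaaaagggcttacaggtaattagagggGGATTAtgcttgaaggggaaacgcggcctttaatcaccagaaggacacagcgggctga
Col8a1: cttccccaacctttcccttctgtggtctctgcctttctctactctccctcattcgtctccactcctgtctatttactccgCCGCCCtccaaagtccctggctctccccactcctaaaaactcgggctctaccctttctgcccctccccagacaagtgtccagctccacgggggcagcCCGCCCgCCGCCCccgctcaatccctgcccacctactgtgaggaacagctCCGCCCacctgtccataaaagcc
Col8a2: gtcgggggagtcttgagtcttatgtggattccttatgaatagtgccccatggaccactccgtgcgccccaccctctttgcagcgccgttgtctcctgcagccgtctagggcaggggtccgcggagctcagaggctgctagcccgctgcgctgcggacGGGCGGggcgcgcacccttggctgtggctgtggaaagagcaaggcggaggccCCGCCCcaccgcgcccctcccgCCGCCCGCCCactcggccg
The TATA box of Cldn2 began 35 bases before the start, and 12.4% of all 32851 promoter windows of this length held this motif. In Abca4 it began 119 bases before the start, with the homeodomain core, held by 6.25% of windows, 58 bases before it. Both collagen genes held 4 GC boxes, a motif found in 32.7% of windows, of which the last 2 in Col8a2 overlap. F5 held 1 GC box and no entry of Prlr, Oca2 or Tmem72 held any of the 3 motifs. These matches are a description of letters, since binding was not measured.

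In controls the 10 genes were expressed at low levels, and their order by mean per kilobase of exon kept the same top and bottom in the 6 control groups. Sostdc1, a secreted antagonist of BMP and WNT signalling, had the highest mean in every group, from 1.605 ± 0.990 counts per kilobase (RPKM, the CPM divided by exon length, SD, n = 3) in Cb at 1 month to 3.64 ± 0.20 in Cb at 2 months. In Cb at 1 month Cldn2 (1.53 ± 0.46 RPKM) lay within its spread. In F/M at 3 months Prlr (2.02 ± 0.06) lay within the spread of Sostdc1 (2.22 ± 0.23 RPKM). Wdr72, a WD repeat protein of intracellular trafficking, had the lowest mean in every group, between 0.00639 ± 0.00645 RPKM in F/M at 2 months and 0.130 ± 0.044 in Cb at 2 months. Oca2, a melanosomal membrane protein, and Tmem72, a transmembrane protein, took the places above it. The annotation of 2 months gives Col8a1 5108 exon bases and those of 1 and 3 months 7833, which bears on its RPKM. Abca4 ranked 7 in every control group, between 0.398 ± 0.041 and 0.870 ± 0.095 RPKM. The order of the 5 genes between it and Sostdc1 changed between groups. In F/M at 1 month Col8a2 (1.12 ± 0.07), Prlr (1.07 ± 0.35), Col8a1 (1.04 ± 0.16) and Cldn2 (1.01 ± 0.16 RPKM) lay within their spread, whereas in F/M at 3 months Prlr (2.02 ± 0.06) and Cldn2 (1.33 ± 0.09 RPKM) were apart by more than theirs. Some values rest on few counts: the total count over 3 control libraries of F/M at 2 months was 3 for Wdr72, while Prlr had between 147 and 622 counts in each F/M control library of the 2 later ages.

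**Figure D1:**
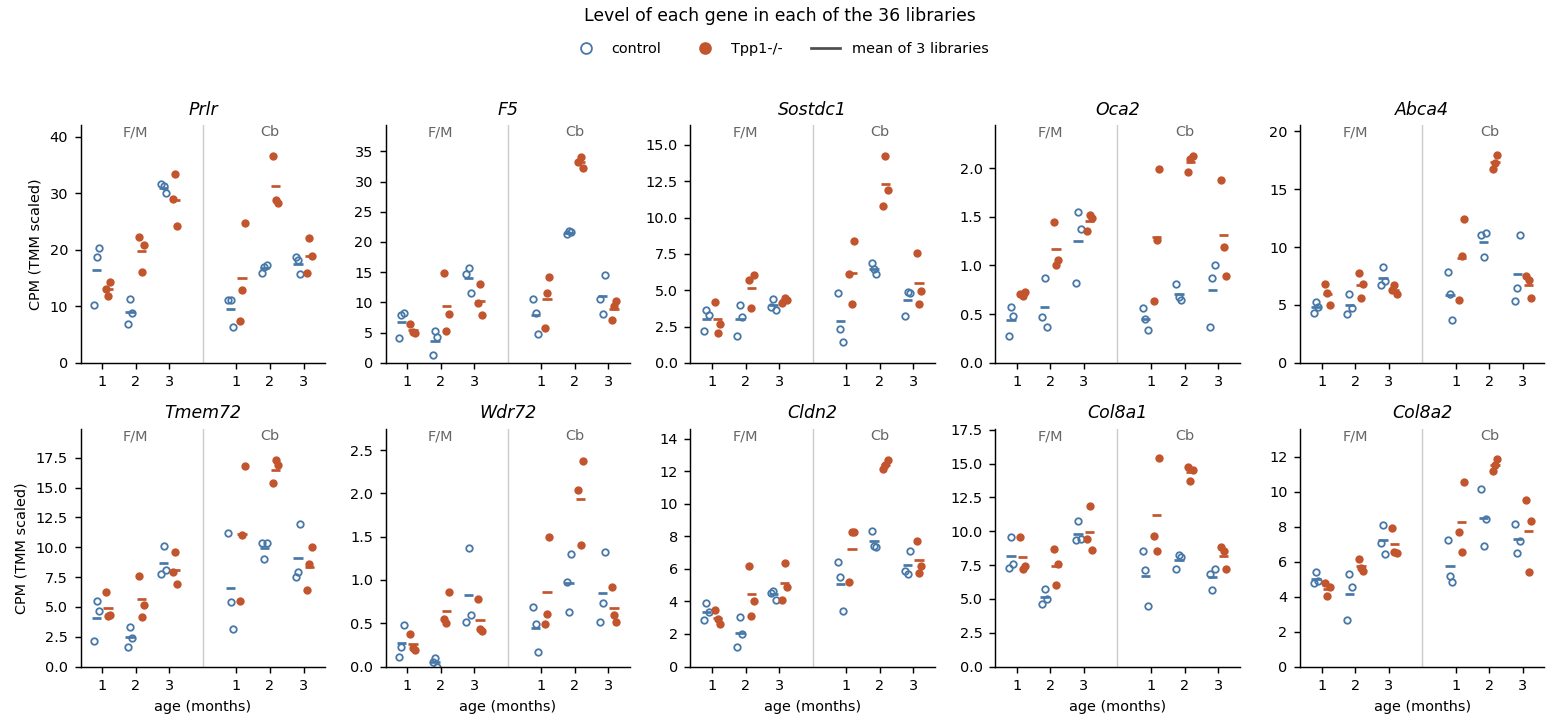
CPM of each gene (vertical axis) in each library by age in months (horizontal axis), with F/M on the left and Cb on the right of each panel. Open blue points are control libraries, filled orange points are Tpp1-/- libraries and short lines are means of 3. The Cb libraries at 2 months show 2 separate groups for all 10 genes, and the groups overlap for all of them in both regions at 3 months.

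At 2 months the Tpp1-/- means were above the control means for all 10 genes in both regions (50.8% of all genes in F/M and 50% in Cb had a fold change above 0), with a median log2 fold change of 1.09 in F/M and 0.80 in Cb, against 0.00 for all genes tested in each. This is the contrast that picked the genes. In F/M, 6 of the 10 passed the calling rule of the study, an adjusted p under 0.1 and a change of at least 1.5-fold (F5, Tmem72, Wdr72, Sostdc1, Prlr and Cldn2), where 0.737% of all genes passed. That count rests on single libraries: it ran from 1 (Prlr, without Tpp1-/- replicate 1) to 9 (without control replicate 2), was 2 without control replicate 3 or Tpp1-/- replicate 3, and was 1 with only the 6 libraries compared. In Cb 7 passed (Prlr, Sostdc1, Oca2, Abca4, Tmem72, Cldn2 and Col8a1), where 2.05% of all genes passed. The libraries of the 2 genotypes did not overlap for 7 genes in F/M and for all 10 in Cb, and 9.46% and 7.65% of all genes did so in the same direction. Just inside the rule lay Sostdc1 in F/M (0.78) and Cldn2 in Cb (0.69), and just outside it Oca2 in F/M (1.06) and Wdr72 in Cb (0.99). For the gene lists below, counts at an unadjusted p under 0.05 at 2 months are by edgeR. The share of all genes at that threshold is not given for 2 months, so those counts have no background.

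Prlr, the receptor for the pituitary hormone prolactin, had 6.91, 11.3 and 8.80 CPM in the F/M controls and 22.3, 16.0 and 20.9 in the F/M Tpp1-/- libraries at 2 months. In Cb it had 16.0, 17.0 and 17.3 against 36.7, 28.8 and 28.3 CPM. Every Tpp1-/- library was above every control of its region, with log2 fold changes of 1.13 and 0.90. Of the 14 genes of prolactin and growth hormone signalling, 13 were tested at 2 months. Gh, the pituitary growth hormone, was lower in F/M (-2.52 on the log2 scale, with means of 1.27 and 0.227 CPM), no other gene of the list passed the rule at 2 months, and the median of the list was 0.08 in F/M and 0.01 in Cb.

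F5, coagulation factor V, a plasma cofactor that the choroid plexus also makes, had 1.36, 5.31 and 4.19 CPM in F/M controls and 14.8, 5.24 and 8.13 in F/M Tpp1-/- libraries. Its groups overlapped there, since the lowest Tpp1-/- library lay below the highest control. In Cb the values were 21.3, 21.8 and 21.6 against 33.3, 34.1 and 32.2 CPM, and the groups were apart by more than their spread. None of the 11 tested genes of the coagulation list passed the rule in either region, with medians of 0.13 and 0.04. At unadjusted p under 0.05, 1 of these was lower in F/M and 1 higher in Cb. All 7 liver markers fell below the filter at each age, and their summed level was at most 1.46 CPM in any library. F5 shares 262 exon bases with the antisense transcript Gm16548, which had at most 4 counts in any library.

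Sostdc1 had 1.88, 3.96 and 3.14 CPM in F/M controls against 5.68, 3.79 and 6.03 in Tpp1-/- libraries at 2 months, which overlapped. In Cb it had 6.84, 6.47 and 6.14 against 10.8, 14.2 and 11.9 CPM, with no overlap. Among the 26 tested genes of BMP and WNT signalling the single gene past the rule was Sfrp2, a secreted WNT inhibitor, which was lower in Cb (a log2 fold change of -1.21), and the median of the list was 0.11 in F/M and -0.0041 in Cb.

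Oca2 was at most 2.12 CPM in all libraries. It had 0.470, 0.869 and 0.367 CPM in F/M controls against 1.44, 1.01 and 1.05 in Tpp1-/- libraries, and 0.805, 0.678 and 0.649 in Cb controls against 1.96, 2.09 and 2.12. The genotypes were apart in both regions, although these values rest on 7 to 54 counts a library. Of 4 tested genes of the melanosome list, Slc24a5, a cation exchanger of the melanosome, passed the rule in Cb (a log2 fold change of 0.95, from a mean of 1.80 to 3.47 CPM). Tyr and Mlana, which define pigment cells, had at most 3 counts in every Cb library at 2 months.

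Abca4, the retinoid flippase of photoreceptor discs, had 4.23, 5.94 and 4.77 CPM in F/M controls and 7.77, 5.62 and 6.79 in Tpp1-/- libraries, which overlapped. In Cb it went from 11.04, 9.13 and 11.2 to 16.8, 17.3 and 17.9 CPM, and the groups were well apart. None of the 10 tested genes of the ABCA transporter family passed the rule, 2 were higher at unadjusted p under 0.05 in F/M and 0 in Cb, and the medians were 0.16 and 0.05. Of the 15 tested genes of retinoid handling 3 passed in Cb, all higher: Rpe65, the retinoid isomerase (1.36), Rdh5, a retinol dehydrogenase (0.63), and Rlbp1, a retinal carrier (0.60). Rdh5 was named by the study from these libraries. Prph2, a photoreceptor gene, had at most 3 counts in every library of 2 months, and the summed CPM of the 13 markers of retina and pigment cells was 7.60 to 9.14 in Cb controls and 10.4 to 12.99 in Cb Tpp1-/- libraries. The part of those cells in the values of Oca2 and Abca4 was not tested.

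Tmem72 had 1.599, 3.33 and 2.41 CPM in F/M controls against 7.57, 4.17 and 5.16, and 10.4, 8.997 and 10.4 in Cb controls against 15.4, 17.3 and 16.9. Both regions were without overlap. Wdr72 had 1, 2 and 0 counts in the F/M controls and 11, 8 and 9 in the F/M Tpp1-/- libraries. Summed over the 3 libraries, this was a ratio of 12.3. Its 95% exact interval of 3.80 to 63.2 gives the counting error of few counts and is no test, since these counts picked the gene. In Cb Wdr72 lay at 0.978, 0.633 and 1.30 against 2.04, 1.41 and 2.37 CPM, so that the groups stood apart by a small gap. None of the 3 related genes (Wdr7, Dmxl1 and Dmxl2, subunits of the V-ATPase regulator rabconnectin) passed the rule or had an unadjusted p under 0.05 at 2 months.

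Cldn2, the claudin that forms cation and water pores in leaky epithelia, had 1.22, 3.04 and 1.99 CPM in F/M controls and 6.18, 3.09 and 4.02 in Tpp1-/- libraries, a narrow gap between the groups. In Cb it had 8.34, 7.41 and 7.34 against 12.2, 12.4 and 12.7 CPM, well apart. Of 13 other tested tight junction genes Cldn1, another claudin, passed the rule in Cb (0.63). The medians of the list were 0.22 in F/M and 0.06 in Cb.

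Col8a1 and Col8a2, the short-chain network collagens of basement membranes, had the smaller F/M changes of the 10 along with Abca4. Col8a1 had 4.66, 5.75 and 5.03 CPM in F/M controls against 8.67, 6.06 and 7.56, and 7.25, 8.23 and 8.09 in Cb controls against 14.8, 13.7 and 14.6. For Col8a2 these values were 2.63, 5.26 and 4.56 against 6.13, 5.62 and 5.45 in F/M, and 10.1, 6.87 and 8.44 against 11.2, 11.5 and 11.9 in Cb. Groups did not overlap for either gene. Col8a1 passed the rule in Cb (0.87) and not in F/M (0.54), and Col8a2 passed in neither (0.48 in F/M and 0.45 in Cb), with no test of the difference between the genes. Among 18 tested genes of network collagens and basement membrane, Col4a4, a chain of collagen IV (0.93), and Hspg2, the heparan sulphate proteoglycan perlecan (0.61), passed in F/M, where all 18 were above 0 with a median of 0.28 and 11 were higher at an unadjusted p under 0.05. In Cb 0 passed by edgeR, 3 were higher and 1 lower at an unadjusted p under 0.05, and the median was 0.07.

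**Figure D2:**
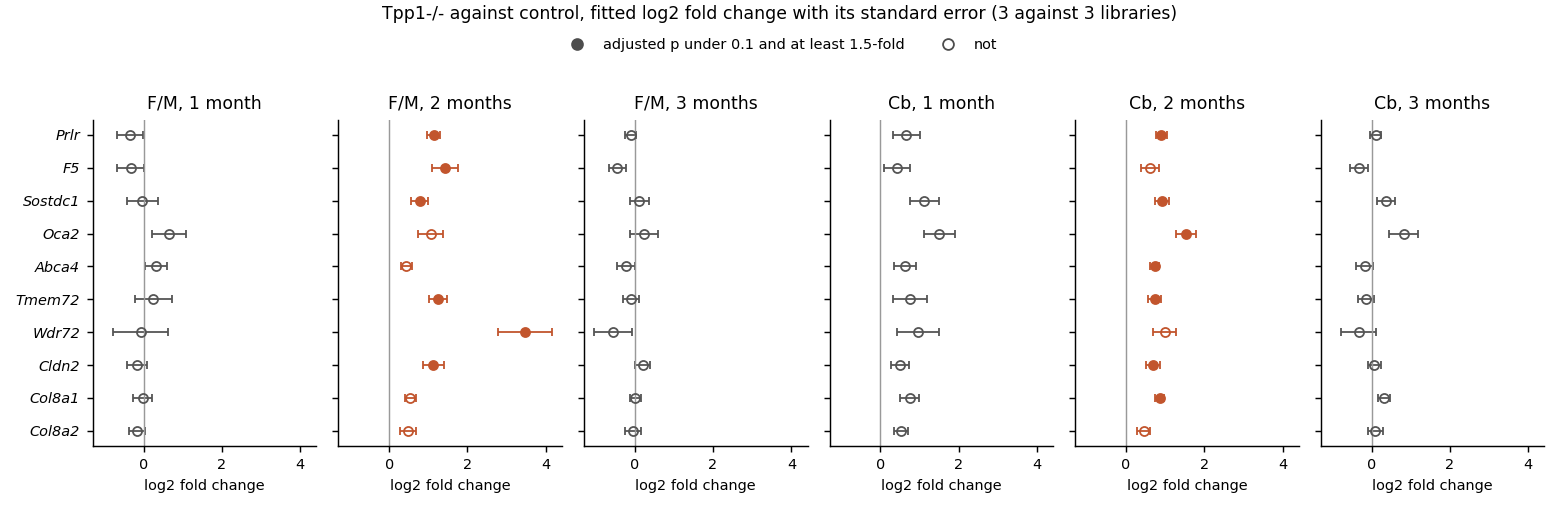
Fitted log2 fold change of Tpp1-/- against control (horizontal axis) for each gene, with its standard error, in 6 panels by region and age. Filled points passed an adjusted p under 0.1 and 1.5-fold, and the 2-month panels (orange) are the contrasts that picked the genes. None of the points at 1 and 3 months is filled, and at 1 month all 10 lie above 0 in Cb and 3 in F/M. The value of Wdr72 in F/M at 2 months rests on 3 control counts and depends on the prior count of the fit.

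Some of the marker lists differed between genotypes at 2 months and others did not. The summed CPM of the 22 choroid plexus genes, which do not include the 10, was 659 to 1215 in F/M controls and 1075 to 1483 in F/M Tpp1-/- libraries, and 1924 to 2302 against 2976 to 3253 in Cb. Of these 22, 6 passed the rule in F/M and 7 in Cb, all higher, among them Slc4a5, a bicarbonate transporter (1.43 in F/M and 0.78 in Cb), Kl, the hormone coreceptor klotho (0.93 in F/M), and Aqp1, a water channel (0.96 in Cb). Those 3, like Ttr, Folr1, Clic6, Slc2a12, Lbp and Rdh5 of the same list, the ependymal genes Dnah12, Dnah6 and Ak7, and the collagen Col4a4, were named by the study from these libraries and are not independent evidence of direction, nor is the level of the list. The 13 ependymal markers summed to 33.1 to 43.9 CPM in F/M controls and 52.0 to 53.1 in Tpp1-/- libraries, where the motile cilium genes Dnah12 (0.93), Dnah6 (0.65) and Ak7 (0.60) passed. In Cb 0 of them passed by edgeR, with 2 at an unadjusted p under 0.05. In the meningeal list Igf2, a growth factor that the plexus stroma makes too, passed in F/M (1.11), but 6 of the 11 genes were above 0 with a median of 0.005, and the summed CPM overlapped (748 to 904 in controls and 729 to 875 in Tpp1-/- libraries). In Cb all 11 were above 0 with a median of 0.08, 0 passed by edgeR and 2 were higher at an unadjusted p under 0.05. The 9 endothelial markers had 0 genes past the rule by edgeR, with 3 at an unadjusted p under 0.05 in F/M and 0 in Cb, and a median of 0.18 in F/M and -0.0016 in Cb.

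Markers of neighbouring brain tissue differed between the genotypes at 2 months as well. The 12 midbrain and thalamus genes summed to 78.7 to 84.0 CPM in F/M controls and 117 to 124 in Tpp1-/- libraries, and to 224 to 230 against 150 to 182 in Cb, with no overlap in either region. In F/M Slc6a4, the serotonin transporter (2.60), and Tph2, the serotonin synthesis enzyme (1.93), were the largest of 4 that passed. In Cb Lhx9 (-3.49) and Tcf7l2 (-2.999), transcription factors of the thalamus, were lower, and Gata3, with a mean of 1.23 CPM in controls, had at most 3 counts in every Tpp1-/- library. The forebrain genes Drd2 (-2.80) and Rasgrf2 (-2.04), were lower in Cb too, in a list of 9 whose median there was -0.10 with 1 gene higher at an unadjusted p under 0.05. In F/M 0 of these 9 passed by edgeR and 3 were lower at an unadjusted p under 0.05, and their summed CPM was 849 to 866 in controls and 786 to 805 in Tpp1-/- libraries, without overlap. Neither the cause of these marker differences nor their part in the values of the 10 genes was tested.

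When the mean log2 CPM of the 22 choroid plexus genes was put into the 2-month fit, the fold changes shrank. These values, like the others of 2 months, are a description, because 5 of the genes were picked for their rise and an excess over the list is no independent result. The median over the 10 genes became 0.32 in F/M, where it was 1.09 without the list, and 0.38 in Cb, where it was 0.80. With the list, Prlr lay at 0.68 in F/M, and Wdr72 at 2.95 where it was 3.47, a pair of fitted values that rest on 3 control counts. In Cb Oca2 lay at 0.97 and Col8a1 at 0.60, while Cldn2 turned from 0.69 to -0.13 in Cb and F5 from 0.62 to -0.48. Taken as a difference from the list within a library, Prlr lay higher in Tpp1-/- without overlap in both regions, with 0.63 ± 0.08 in controls and 1.21 ± 0.11 in Tpp1-/- for F/M, and 0.35 ± 0.13 and 0.71 ± 0.16 for Cb (log2 units, SD, n = 3). Oca2, Cldn2 and Tmem72 did so in both regions also, F5 and Wdr72 only in F/M, and Abca4, Sostdc1 and Col8a1 only in Cb, without a test of the difference between regions. Col8a2 did so in neither. The share of all genes that lay higher without overlap on this measure is not given, so the tally has no background. The 2 ways of taking the list into account differed in sign for some genes. In Cb, Cldn2 lay 0.155 and F5 0.09 above their controls as a difference from the list, against -0.13 and -0.48 with the list as a term.

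**Figure D3:**
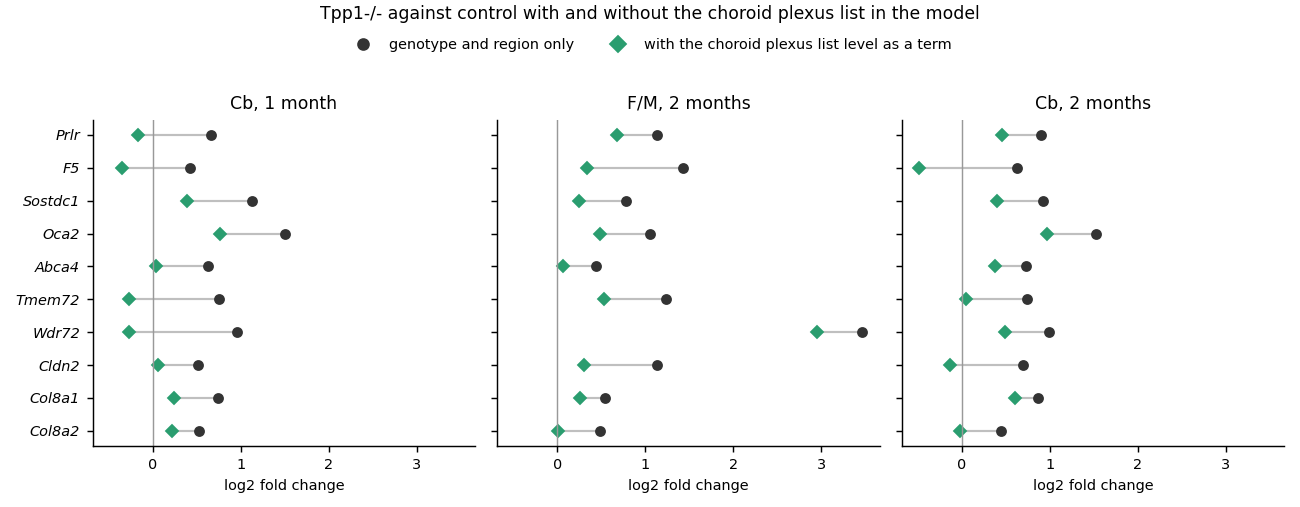
Log2 fold change of Tpp1-/- against control (horizontal axis) of each gene without (black circles) and with (green diamonds) the mean level of 22 choroid plexus genes as a term, in Cb at 1 month and in both regions at 2 months. All 30 values are lower with the term, and the medians go from 0.70 to 0.04, from 1.09 to 0.32 and from 0.80 to 0.38.

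At 1 month in Cb all 10 genes had a fold change above 0, as 51.3% of all genes did, but none passed the calling rule. Their median log2 fold change was 0.70, with a range of 0.42 to 1.51, against 0.01 for all genes tested. The choroid plexus list rose alike, with 22 of 22 genes above 0 and a median of 0.58. Of that list 0 genes passed the rule, and 10 were higher at an unadjusted p under 0.05 by edgeR. By edgeR 0 of 10 passed, where 0.0112% of all genes passed, and 6 had an unadjusted p under 0.05, where 7.66% of all genes did. DESeq2 and limma-voom likewise passed 0, with 6 and 5 at an unadjusted p under 0.05. Oca2 changed most, with 0.567, 0.451 and 0.336 CPM in controls and 0.638, 1.26 and 1.99 in Tpp1-/- libraries (a log2 fold change of 1.51 ± 0.40 SE, adjusted p = 0.63). It was the one gene of the 10 whose groups did not overlap, a pattern that 4.26% of all genes showed in this direction. Sostdc1 had 4.82, 2.34 and 1.41 against 6.08, 4.05 and 8.36 CPM (1.13 ± 0.38, adjusted p = 0.63), and Col8a1 had 8.55, 7.12 and 4.50 against 9.65, 8.54 and 15.4 CPM (0.75 ± 0.24, adjusted p = 0.63). Both overlapped between genotypes. Col8a2 (0.53), Abca4 (0.63) and Cldn2 (0.51) also had an unadjusted p under 0.05, and Prlr (0.66), Tmem72 (0.75), Wdr72 (0.96) and F5 (0.42) did not.

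The spread within the 1-month Cb groups followed the choroid plexus list. Tpp1-/- replicate 3 held the highest value of 9 of the 10 genes, equal to replicate 2 for Cldn2, and the highest list level, 2677 summed CPM against 1693 and 1852 in the other Tpp1-/- libraries. Control replicate 3, which is Tpp1+/-, held the lowest value of all 10 genes and the lowest list level, 733 against 1924 and 1353. Without that Tpp1-/- library the median fell to 0.33 with 1 gene at an unadjusted p under 0.05, and without that control it was 0.42 with 3. Without Tpp1-/- replicate 1 all 10 genes reached an unadjusted p under 0.05 and none passed the rule. With the list in the fit the median was 0.04 and 0 genes passed or had an unadjusted p under 0.05. The 11 meningeal markers were also higher in Tpp1-/- libraries (934 to 1175 summed CPM against 681 to 819), and their part was not tested. With no filter on low counts 6 genes passed the rule (Prlr, Oca2, Abca4, Sostdc1, Col8a1 and Tmem72), where 82 genes passed in all.

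At 1 month in F/M the genes did not move together. The median log2 fold change was -0.06, 3 of 10 were above 0 (48.8% of all genes), and 0 passed the rule by edgeR, DESeq2 or limma-voom (0.0112% of all genes passed by edgeR), with 0 at an unadjusted p under 0.05 by each (1.89% of all genes by edgeR). Prlr had 10.3, 18.7 and 20.3 CPM in controls and 12.997, 11.8 and 14.4 in Tpp1-/- libraries (-0.35 ± 0.34, adjusted p = 1). F5 had 4.11, 7.98 and 8.30 against 6.42, 5.04 and 4.93 CPM (-0.32 ± 0.34, adjusted p = 1). Both lay well within the spread of the controls. Oca2 was the one gene whose Tpp1-/- libraries all lay above the controls (0.708, 0.689 and 0.732 against 0.277, 0.573 and 0.478 CPM, 0.65 ± 0.44, adjusted p = 1), as 8.31% of all genes did. Col8a2 was the one gene whose Tpp1-/- libraries all lay below the controls (4.75, 4.05 and 4.54 against 4.77, 5.38 and 4.87 CPM, -0.17 ± 0.20), and 14.8% of all genes did not overlap in either direction. The effect in Cb was above that in F/M for all 10 genes (49.6% of all genes), with a median difference of 0.75 on the log2 scale, but 0 differed at an adjusted p under 0.1 by edgeR, DESeq2 or limma-voom, and 2, 3 and 3 had an unadjusted p under 0.05 (1.94% of all genes by edgeR). Those 2 were Col8a2 (0.70 ± 0.27) and Col8a1 (0.76 ± 0.34), each with an adjusted p of 1.00. At this age 0% of all genes differed between regions in their effect.

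By 3 months the genotypes overlapped for all 10 genes in both regions. In F/M the median log2 fold change was -0.07 and the range -0.55 to 0.23, with 0 of 10 past the rule by any of the 3 tools, where 0.464% of all genes passed, and 0 at an unadjusted p under 0.05 by each, where 5.94% of all genes lay by edgeR. Fold changes were above 0 for 4 of 10, and for 49.2% of all genes. Prlr lay at 31.7, 31.3 and 30.0 CPM in controls and 29.0, 33.4 and 24.3 in Tpp1-/- libraries (-0.10 ± 0.13, adjusted p = 1). F5 lay at 14.7, 15.7 and 11.5 against 9.89, 13.1 and 7.92 CPM (-0.44 ± 0.23, adjusted p = 0.90). Wdr72 lay at 0.510, 1.37 and 0.591 against 0.776, 0.433 and 0.412 CPM, and none of these values separated the genotypes.

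In Cb at 3 months the median was 0.08, 6 of 10 were above 0 (49.2% of all genes), and 0 genes passed by any of the 3 tools (0.859% of all genes by edgeR). By each tool 1 gene had an unadjusted p under 0.05 (6.49% of all genes by edgeR), which was Oca2 by edgeR. It had 0.371, 0.871 and 1.00 CPM in controls and 1.87, 1.19 and 0.892 in Tpp1-/- libraries (0.82 ± 0.37, adjusted p = 0.75). Its lowest Tpp1-/- library lay within the controls. Sostdc1 (0.37 ± 0.22), Col8a1 (0.31 ± 0.15), Tmem72 (-0.13 ± 0.21) and Abca4 (-0.17 ± 0.22) all overlapped. The effect in Cb did not differ from that in F/M for any of the 10 at an adjusted p under 0.1, where 0.00581% of all genes did so by edgeR, and 0 had an unadjusted p under 0.05 by any of the 3 tools (3.51% of all genes by edgeR). In the same libraries Sost, a secreted WNT inhibitor related to Sostdc1, fell in Cb (-1.68 ± 0.25, adjusted p = 0.0051). At 3 months 0 of 22 choroid plexus genes passed or had an unadjusted p under 0.05 in either region, with medians of 0.01 and -0.03.

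The change of the Tpp1-/- effect from 1 to 3 months was negative for all 10 genes in Cb, with a median of -0.70 and a range of -1.28 to -0.43. None differed at an adjusted p under 0.1 by edgeR or DESeq2 (0.458% of all genes did by edgeR), and 1 had an unadjusted p under 0.05 by each (7.91% of all genes by edgeR), which by edgeR was Abca4 (-0.79 ± 0.33, adjusted p = 0.54). In F/M the median was -0.03, with 5 of 10 below 0, none at an adjusted p under 0.1 (0.153% of all genes) and 0 at an unadjusted p under 0.05 by either tool (5.41% of all genes by edgeR). Since sex by RNA and the processing set change with age here, their part in these changes cannot be told apart from that of age. The fold changes at 2 months were not entered in a test of age, since they picked the genes. The 1-month Cb median of 0.70 was 0.33 without Tpp1-/- replicate 3 and 0.04 with the choroid plexus list in the fit. The change in Cb, which starts from that median, was not refitted with single libraries left out. The share of all genes with a negative change is not given.

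In controls Prlr was lower in Cb than in F/M at 1 month (-0.81 ± 0.35, adjusted p = 0.063) and at 3 months (-0.82 ± 0.14, adjusted p = 0.00017), the one gene of the 10 past the rule in this comparison at either age, where 36.9% and 37.7% of all genes passed. At 1 month the 2 regions overlapped, 6.31 to 11.1 CPM for Cb beside 10.3 to 20.3 for F/M, and the call was lost with DESeq2 (adjusted p = 0.11) and without F/M control replicate 2 or 3 or Cb control replicate 3 (adjusted p = 0.16 to 0.22). At 3 months they did not, with 15.8 to 18.7 CPM in Cb and 30.0 to 31.7 in F/M. At 2 months Prlr was higher in Cb than in F/M (16.0 to 17.3 against 6.91 to 11.3 CPM), a description from controls that took part in picking the genes.

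None of the other 9 genes passed in this comparison at 1 or 3 months. Cldn2 was higher in Cb at both ages without reaching 1.5-fold (0.58 ± 0.24, adjusted p = 0.057, and 0.49 ± 0.18, adjusted p = 0.038), and Col8a1 was lower in Cb at 3 months (-0.58 ± 0.15, adjusted p = 0.0063), also short of it. With library totals and no scaling factor Cldn2 passed at both ages, and Col8a1 passed at 3 months with DESeq2 or RLE scaling. At 2 months 9 of 10 passed as higher in Cb, where 39.3% of all genes passed in either direction, with 3.33 CPM or less of Tmem72 in each F/M control and at least 8.997 in each Cb control, and the choroid plexus list was higher in Cb likewise (1924 to 2302 against 659 to 1215 summed CPM). The sex label, which the RNA contradicted, was associated with 0 of the 10 genes by edgeR at 1 month (1.32% of all genes) and 0 at 3 months (0% of all genes), with 0 at an unadjusted p under 0.05 at each age (14.8% and 4.22% of all genes). By RNA neither of these ages held both sexes, so this fit compared labels and cannot tell of sex.

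**Figure D4:**
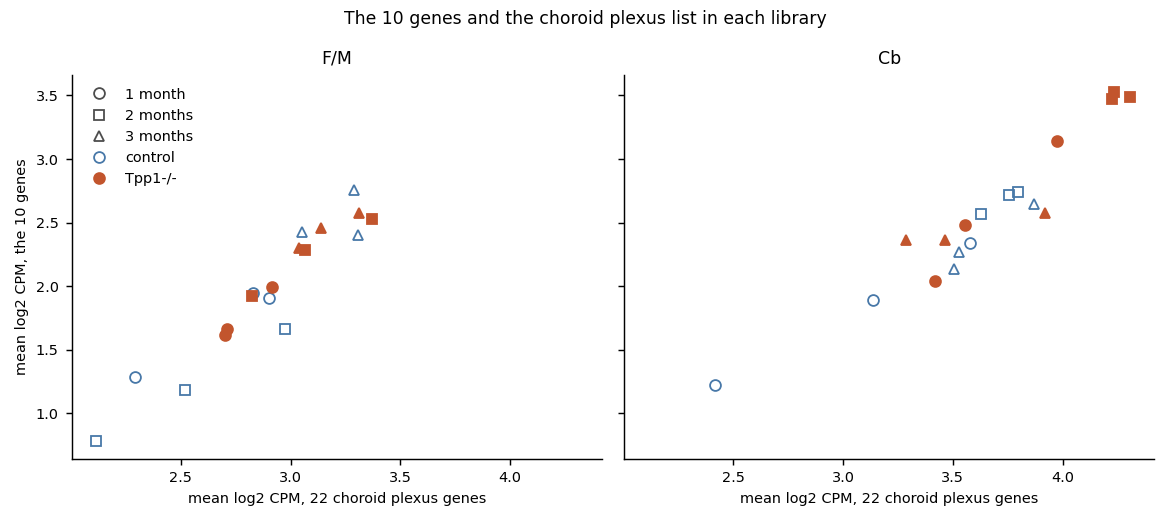
Mean log2 CPM of the 10 genes (vertical axis) against that of the 22 choroid plexus genes (horizontal axis) in each library, with F/M on the left and Cb on the right. Shapes give the age, open blue points are controls and filled orange points are Tpp1-/- libraries. The 3 Cb Tpp1-/- libraries of 2 months are highest on both axes (4.23 to 4.31 and 3.47 to 3.53), and the F/M control replicate 1 of 2 months is lowest on both (2.11 and 0.78).

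After the mean of its own group of 3 was taken from each library, the correlation of a gene with the mean of the other 9 over 36 libraries was highest for Tmem72 (r = 0.90) and Abca4 (r = 0.87) and lowest for Col8a2 (r = 0.57), given as a description because these libraries share depth and dissection. Within single ages it was lower for some genes: at 3 months r was -0.27 for Prlr, 0.14 for Col8a2 and 0.36 for F5, and at 2 months it was 0.24 for Wdr72. Of 16713 genes compared, the 8 most like the 10 were Kl (0.93), Mfrp, a frizzled-related membrane protein (0.92), Enpp2, the phospholipase autotaxin (0.92), Slc4a5 (0.86), Clic6, a chloride channel (0.84), Ttr, the thyroid hormone carrier transthyretin (0.84), Aqp1 (0.83) and Kcnj13, a potassium channel (0.82). Of those 8, 7 belong to the choroid plexus list, 17 of whose 22 genes were among the 40 most alike, and the median r over all genes was 0.01.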

How the data were processed

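Total RNA from forebrain/midbrain and cerebellum was made into stranded poly(A) libraries and read as 50-nt single ends. The deposited values are raw read counts per gene, which the authors made with STAR 2.5.2b on mm10 and featureCounts. Per the file headers, 1-month libraries were counted with version 1.6.3 on GENCODE M21 and strand setting 1, 2-month libraries with 1.6.2 on M16 and strand setting 2, and 3-month libraries with 1.6.2 on M18 and strand setting 1, so levels are compared within an age. The labels gave the groups. The 12 libraries of each age were fitted together with edgeR 4.0.16 (R 4.3.3; TMM scaling, filterByExpr over the 4 groups, quasi-likelihood test, Benjamini-Hochberg adjustment), with 17916, 17229 and 17224 genes tested at 1, 2 and 3 months. Genes passed at an adjusted p under 0.1 and at least 1.5-fold; differences between effects needed no fold. The change from 1 to 3 months was fitted on all 36 libraries over 18322 genes, with ages matched by gene ID. Fitted changes carry their SE after the ± sign. All 10 genes are named, with up to 4 list genes that passed at 1 or 3 months, up to 3 at 2 months, the 8 genes most like the 10, and markers that define a cell type. A list result that met this rule is not reported here. The genes and lists were chosen with earlier results of these data known. F/M and Cb controls with the same number at 1 month deviated together (r = 0.198, 0.124 and 0.131), and their replicate numbers share genotype and sex labels; blocking by that number kept the call of Prlr. Alternatives were DESeq2 1.42.0, limma-voom 3.58.1, other scalings and filters, blocks, the choroid plexus list as a term and leaving out each library. On simulated counts for 1-month Cb (17916 genes) the test called 30% of genes changed 1.5-fold and 90% of those changed 2-fold. The changed genes were drawn at random from all genes tested, and their counts varied independently. These shares are therefore not recovery rates for the 10 genes, which are low and varied together between libraries.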

Additional observations from a re-analysis of the deposited data

Results flagged for a closer look

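Col8a2 in F/M passed the rule at neither 1 nor 2 months, but its groups did not overlap at either age and lay in opposite order, with every Tpp1-/- library below every control at 1 month (a log2 fold change of -0.17) and every Tpp1-/- library above every control at 2 months (0.48). The difference between the ages was not tested, because the 2-month contrast took part in picking the genes. At 1 month the gap was 4.75 against 4.77 CPM (edgeR adjusted p = 1), and at 2 months Col8a2 passed in 0 of 16 settings. Among all genes 14.8% did not overlap at 1 month in either direction and 9.46% did not overlap at 2 months in the higher direction. Groups of 3 libraries were not screened for outlying samples.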

How the results depend on the processing

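No gene passed in the genotype comparisons of 1 and 3 months under most alternatives. Without a filter on low counts, 6 passed in Cb at 1 month and 1 differed between regions there. In the 2-month F/M description, 6 genes passed, against 3 with the replicate block, 1 with only the 6 libraries compared, 2 with the choroid plexus list as a term and 7 with no filter or at least 1 CPM in 3 libraries, and 1 to 9 with 1 library left out (1 without Tpp1-/- replicate 1, 2 without Tpp1-/- replicate 3 or control replicate 3, 9 without control replicate 2). In Cb 7 passed at 2 months, against 1 with the list as a term, where Cldn2 turned to -0.13, 9 with no filter, 8 with at least 1 CPM in 3 libraries or only the 6 libraries compared, and 5 to 7 with 1 library left out. For Cb against F/M in controls at 1 month, where 1 passed, DESeq2 gave 0, all 3 tools together 0, library totals 2 and no filter 3, and leaving out 1 library 0 to 2 (0 without F/M control replicate 3, 2 without Cb control replicate 3). At 3 months 1 passed, and DESeq2, RLE scaling, library totals and the block of both regions by replicate number gave 2 each, with 1 to 4 on leaving out 1 library (4 without Cb control replicate 3, 3 without F/M control replicate 1). Library totals moved the median of all genes in that comparison to 0.15, so those values are relative to it. The cause of these shifts was not tested. Deviations of same-numbered control and Tpp1-/- libraries correlated from -0.085 to 0.229, over 0.1 in 4 of 6 pairs at 1 month, 2 of 6 at 2 months and 0 of 6 at 3 months. Since not every pair was over 0.1, the values without the block stand, although same-numbered libraries of 1 and 3 months also share a sex label. The replicate block left 0 genes passing at 1 and 3 months. Between F/M and Cb, 5 of 6 pairs were over 0.1 at 1 month (0.095 to 0.198) and 0 of 6 at 2 or 3 months. With the block over regions at 1 month, 4 of the 10 genes, against 2, differed in effect at an unadjusted p under 0.05, 0 passed, and 5 of all genes passed, against 0. Depth limits Wdr72 in F/M at 2 months, where the controls held 3 counts in all.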
